A study of Caenorhabditis elegans with 17 samples.

Results

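The *rab-*, *rme-*, *vps-* and *snx-* genes of *C. elegans* encode much of the machinery that moves membrane and cargo between the plasma membrane, endosomes, the Golgi and lysosomes. Members were all genes of the deposited table whose name begins with one of these 4 prefixes and a number, except the yolk receptor gene *rme-2*. This rule found 61 of 21459 genes: 20 *rab*, 4 *rme*, 30 *vps* and 7 *snx* genes. The rule used names only and no measured value. All 61 are annotated as protein-coding.

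RNA was sequenced from oocytes dissected out of wild-type Bristol N2 hermaphrodites. Animals had been moved as L4 larvae to 300 mM NaCl plates, a mild osmotic stress (8 libraries), or to control NGM plates (9 libraries). Control plates also hold NaCl, at the lower level of normal laboratory culture. All animals were dissected on day 1 of adulthood. The 3 oocytes nearest the spermatheca came away with a little gonadal sheath attached, so sheath RNA is present too. In each group the library names carry 3 replicate numbers with a letter, while the description published with the experiment gives 3 replicates per condition, each of 3 oocytes from 1 animal. The deposited table gives one level per gene, the authors' mean normalized count, averaged over the libraries that entered their comparison. Which of the 17 labelled libraries these were is not given in the sources used here. Its remaining columns are the authors' own comparison of 300 mM NaCl with control and were not used, so the levels below describe both groups pooled and say nothing about a response to NaCl. No value of a single library was used, so levels have no replicate error and the order of genes with similar levels is not established. How deeply each library was sequenced is not known from the table.

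Rab proteins are small GTPases that mark membrane compartments and, in their GTP-bound form, recruit the tethers, motors and lipid enzymes of each transport step. RME proteins were named for mutants with defective receptor-mediated endocytosis of yolk, which the growing oocyte takes up in bulk. VPS proteins, named after yeast mutants in vacuolar protein sorting, form the ESCRT, HOPS, CORVET, GARP and retromer complexes. Sorting nexins bind phosphoinositides on endosomes and sort cargo with or without retromer.

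Because long transcripts give more fragments than short ones, levels were divided by the length of all annotated exons of a gene, and are given as mean normalized counts per kb. The percentile of a gene is the percentage of the 17713 protein-coding genes of the table with a level per kb at or below its own. The median over the 61 genes was 262 per kb, against 17.5 per kb over the 17652 other protein-coding genes. Of the 61 genes, 57 (93.4%) lay above the median of all protein-coding genes, 17.7 per kb, and 35 (57.4%) lay above the third quartile, 214 per kb. Among the other protein-coding genes the same shares were 49.9% and 24.9%. Ranked only among protein-coding genes with a mean of at least 10, 20 of 59 members lay above the third quartile and 13 at or below the median. As deposited, 54 of the 61 means (88.5%) were at least 100 and 59 (96.7%) were at least 10, against 36.2% and 59.5% of the means of the other protein-coding genes. Together the 61 genes, of 21459 in the table, made up 0.763% of the summed means and 0.633% of the summed levels per kb. These counts describe a list chosen by name and carry no test.

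**Figure D1:**
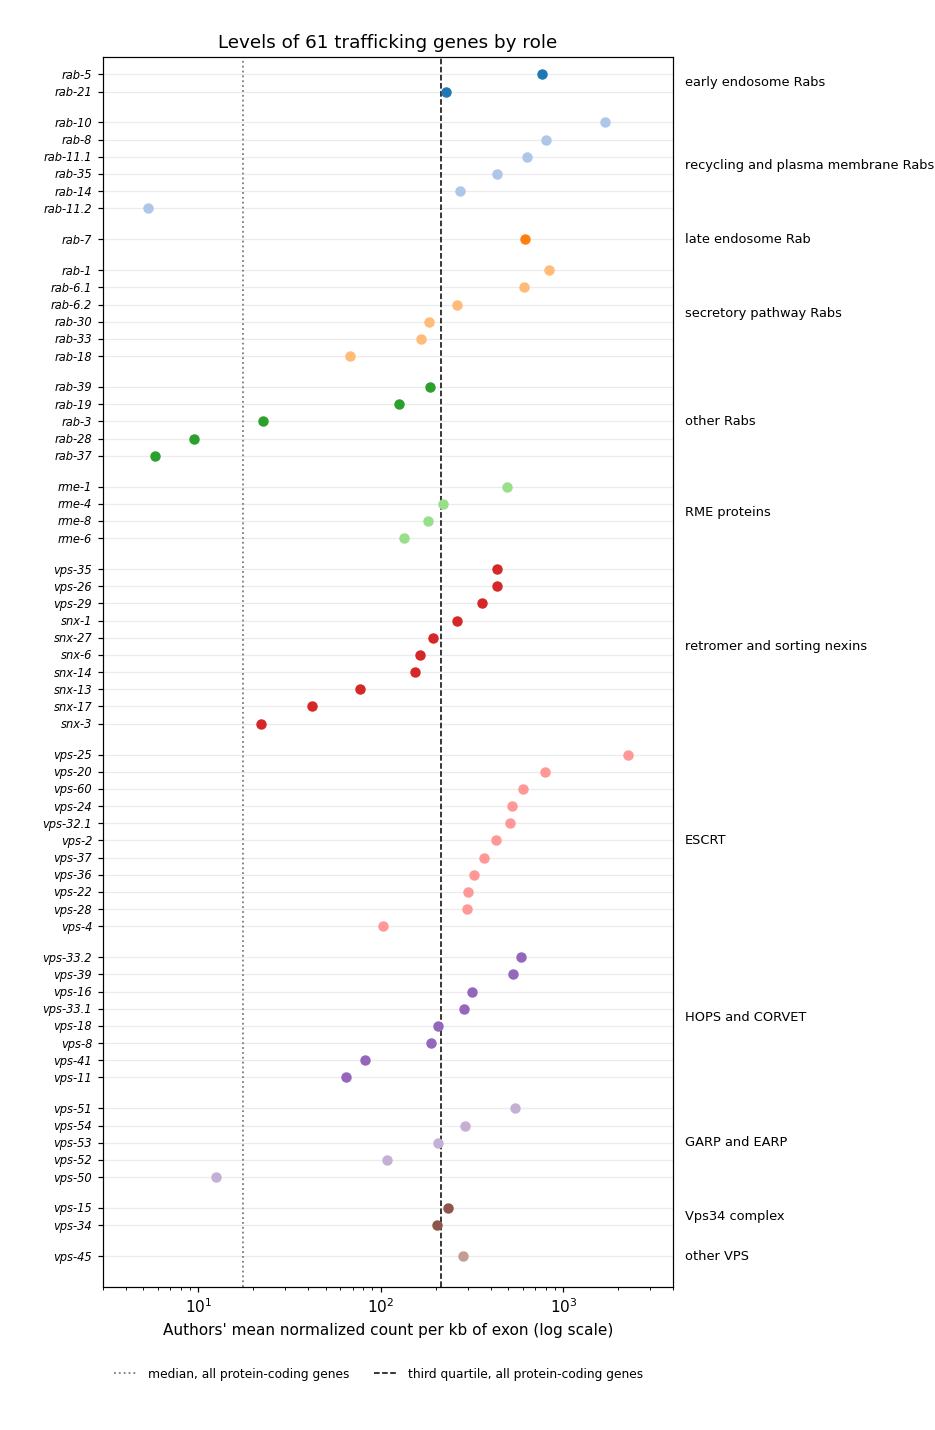
Each point is 1 of the 61 genes, placed by the authors' mean normalized count per kb of exon (x axis, log scale) and grouped by role (right). The dotted and dashed lines mark the median (17.7) and the third quartile (214) of all protein-coding genes; *vps-25* and *rab-10* lie furthest to the right, and *rab-11.2*, *rab-37*, *rab-28* and *vps-50* lie left of the dotted line.

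**Figure D2:**
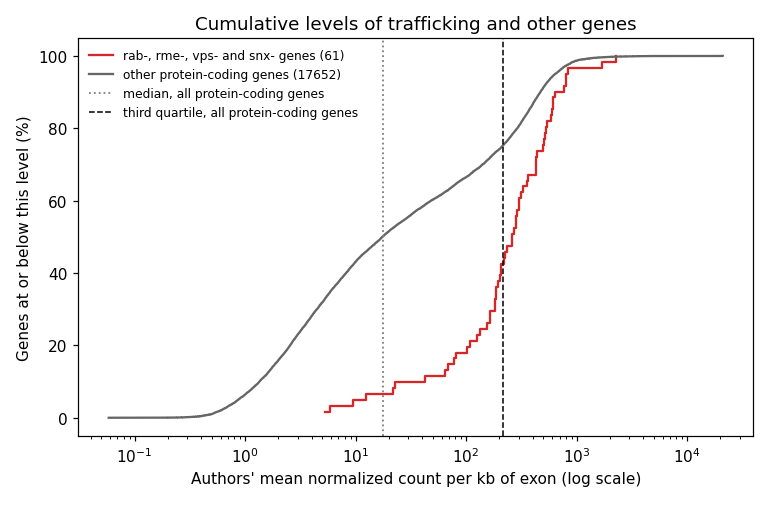
Percentage of genes (y axis) at or below each level per kb of exon (x axis, log scale), for the 61 trafficking genes and for the 17652 other protein-coding genes. At the dotted line, the median of all protein-coding genes, the trafficking curve has reached only 4 of 61 genes.

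Among the Rabs of the early endosome, *rab-5* (WBGene00004268, chromosome I from 9308442 to 9310221 in WBcel235), whose product drives fusion of incoming vesicles with early endosomes, had a mean of 829 and a level of 767 per kb, at percentile 96.9. *rab-21* (chromosome II from 8713998 to 8715013), known in mammals for endosomal trafficking of integrins, had a mean of 177 and 227 per kb, at percentile 75.9. The level per kb of *rab-5* was 3.39 times that of *rab-21*. *rab-7* (chromosome II from 11965523 to 11966931), the Rab of late endosomes and lysosomes, stood at 613 per kb (percentile 94.5), and 5.94% of its exon bases are shared with *W03C9.5* on the same strand.

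The Rabs of recycling and of transport to the plasma membrane held both the highest Rab and the lowest gene of the whole set. *rab-10* (WBGene00004273, chromosome I from 6457282 to 6458479), which acts in endocytic recycling in the worm intestine, had a mean of 1182 and a level of 1698 per kb, at percentile 99.6. It was followed by *rab-8* (801 per kb, chromosome I from 3682890 to 3684086), whose product acts in exocytic transport, and *rab-11.1* (632 per kb, chromosome I from 108682 to 110057), the Rab of recycling endosomes, which is also needed for cortical granule exocytosis in the newly fertilised egg. *rab-35* (chromosome III from 11306647 to 11311566), which acts with RME-4 in recycling of the yolk receptor, stood at 433 per kb. The lower end was formed by *rab-14* (272 per kb) and *rab-11.2*.

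*rab-11.2* (WBGene00004275, chromosome I from 11632983 to 11638491) had a mean of only 3.97 and 5.28 per kb, at percentile 32.8. The level per kb of its paralog *rab-11.1* was 120 times as high, and the ratio was 184 per kb of coding sequence and 196 between the means as deposited. The other numbered Rab pair differed far less. *rab-6.1* (chromosome III from 9004821 to 9005955) stood at 606 per kb and *rab-6.2* (chromosome X from 17222475 to 17224465) at 261 per kb, a ratio of 2.32. Both encode Golgi Rabs, and RAB-6.1 acts in cortical granule exocytosis. How reads that match both paralogs were assigned is not given in the sources used here, so the split within each pair is uncertain.

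Of the 6 members that encode Rabs of the secretory pathway, all lay above the median of protein-coding genes and 3 lay above the third quartile. *rab-1* (WBGene00004266, chromosome V from 1262629 to 1263989), the Rab of transport from the endoplasmic reticulum to the Golgi, was highest, with a mean of 917 and 836 per kb (percentile 97.6). *rab-6.1* and *rab-6.2* came next. *rab-30*, a Golgi Rab in mammals, stood at 184 per kb. The lowest were *rab-33* (165 per kb), whose mammalian counterparts act at the Golgi and in autophagy, and *rab-18* (68.1 per kb, percentile 62.7), a Rab of the endoplasmic reticulum and lipid droplets in mammals. For *rab-18* the annotated exons total 2350 bases but the coding sequence only 609, so its level depends on which length is used.

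By group median, levels were lowest among the remaining Rabs, a mixed group that includes those known from neurons and cilia. Their median was 22.6 per kb, and none of the 5 reached the third quartile. Single genes overlapped with the other groups. The recycling Rab gene *rab-11.2* (5.28 per kb) lay below all 5, while *rab-39* and *rab-19* lay above *rab-18* (68.1 per kb). *rab-39* stood at 187 per kb and *rab-19* at 126 per kb, with 31.1% of the exon bases of *rab-19* shared with *Y62E10A.20* on the same strand. *rab-3*, the synaptic vesicle Rab, had a mean of 33.01 and 22.6 per kb (percentile 52.7). *rab-28*, which acts at sensory cilia in the worm, had a mean of 8.58 and 9.42 per kb, and *rab-37*, a Rab of secretory granules in mammals, had a mean of 10.6 and 5.82 per kb. For comparison, the 7 neuronal marker genes, of which *rab-3* is one, had a median of 16.7 per kb and ranged from 3.04 to 36.3 per kb. Without *rab-3*, *rab-11.2*, *rab-28* and *rab-37*, a subset formed after the levels were seen, the other 16 Rabs ranged from 68.1 to 1698 per kb.

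The 4 RME genes among the members lay within a 3.67-fold range. The yolk receptor gene *rme-2*, which the rule left out, stood above them at 1539 per kb (mean 4411). *rme-1* (WBGene00004373, chromosome V from 6208885 to 6217664) encodes an EHD-family ATPase that releases cargo from recycling endosomes. It had the highest level of the 4, with a mean of 1614 and 493 per kb (percentile 90.9). *rme-4* (chromosome X from 10373232 to 10379845), which encodes a DENN-domain protein that binds RAB-35, followed at 219 per kb. *rme-8* (chromosome I from 8083576 to 8095610), a J-domain protein of endosomes, had a mean of 1343 but only 182 per kb, since its exons total 7387 bases. *rme-6* (chromosome X from 1097152 to 1103320), an exchange factor for RAB-5, was lowest at 134 per kb (percentile 69.3).

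The 3 subunits of the retromer core, which returns receptors from endosomes to the Golgi and the plasma membrane, lay within a ratio of 1.21. *vps-35* (chromosome II from 5907816 to 5911219) stood at 435 per kb, *vps-26* (chromosome IV from 9339400 to 9341790) at 433 per kb and *vps-29* (chromosome III from 10111953 to 10113058) at 359 per kb. Their means as deposited, 1298, 707 and 321, followed the length of the genes instead. Of the exon bases of *vps-29*, 26.5% lie opposite those of *T16H12.9*, a gene at 23.2 per kb.

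Per kb, all 7 sorting nexins were below the retromer core. By the means as deposited, *vps-29* (321) was below *snx-14* (479), *snx-1* (457), *snx-6* (404) and *snx-27* (384). The remaining sorting nexins were below *vps-29* by that measure too. *snx-1* (261.8 per kb, chromosome X from 1128986 to 1132711) and *snx-6* (165 per kb, chromosome V from 17968263 to 17980082) encode BAR-domain partners of retromer. *snx-27*, which in mammals links cargo with a PDZ-binding motif to retromer, stood at 194 per kb, *snx-14* at 154 per kb and *snx-13* at 77.0 per kb. Low levels were listed for *snx-17* (42.2 per kb, mean 76.6), a cargo adaptor in mammals, and for *snx-3* (WBGene00006503, chromosome I from 9063278 to 9064403), which had a mean of 20.8 and 21.9 per kb, at percentile 52.4. SNX-3 acts with retromer in the recycling of the Wnt carrier MIG-14, and the level of its gene was well under that of the retromer core, whose lowest subunit stood at 359 per kb.

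The ESCRT machinery sorts ubiquitinated membrane proteins into vesicles that bud into the lumen of late endosomes. All 11 ESCRT genes among the members lay above the median of protein-coding genes and 10 above the third quartile, with a median of 430 per kb. The name rule leaves out any ESCRT gene named otherwise. *vps-25* (WBGene00012193, chromosome I from 12733287 to 12741275) had the highest level of all 61 genes, with a mean of 2220 and 2265 per kb, at percentile 99.8. Its product forms ESCRT-II with VPS-22 and VPS-36, whose genes stood at 301 and 324 per kb. The level of *vps-25* was 7.53 times that of *vps-22* and 6.99 times that of *vps-36*. These ratios were 5.21 and 4.96 between the means as deposited, and 7.66 and 10.4 per kb of coding sequence. *vps-25* overlaps *toe-4* (178 per kb) on the opposite strand without sharing an exon base, while *vps-22* shares 23.4% of its exon bases with *C27F2.9* on the same strand, a gene at 1013 per kb. Reads within that stretch cannot be told apart, so the level of *vps-22* is uncertain.

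The 5 members of the ESCRT-III group, whose products polymerise at the bud neck, ranged from 430 to 798 per kb. *vps-20* was highest, at 798 per kb (percentile 97.3, chromosome I from 636804 to 637852), and *vps-2* lowest, at 430 per kb (chromosome II from 12767221 to 12768217). Between them came *vps-60* (603 per kb), *vps-24* (522 per kb) and *vps-32.1* (508 per kb). *vps-60* shares 37.8% of its exon bases with *F41E6.5* on the opposite strand and *vps-24* shares 31.95% with *rnh-1.0* on the same strand. The ESCRT-I genes *vps-37* and *vps-28* stood at 366 and 298 per kb. *vps-4* (WBGene00021334, chromosome I from 1053894 to 1066899), the ATPase that takes ESCRT-III apart, was the lowest of the 11 at 103 per kb (percentile 66.6), and the level of *vps-20* was 7.77 times as high (3.49 times as deposited).

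HOPS and CORVET tether late and early endosomes before fusion and share a core of VPS-11, VPS-16, VPS-18 and a VPS-33 protein. The 8 genes ranged from 64.6 to 588 per kb around a median of 246. *vps-33.2* (WBGene00016960, chromosome II from 6601216 to 6603459) stood at 588 per kb and *vps-33.1* (chromosome III from 8700927 to 8703341) at 284 per kb, a ratio of 2.07 between these Sec1/Munc18-family genes. In the core, *vps-16* stood at 317 per kb and *vps-18* at 207 per kb, while *vps-11* was lowest at 64.6 per kb (chromosome II from 10788106 to 10793493, percentile 62.3). Of the subunits particular to HOPS, *vps-39* (chromosome V from 14034323 to 14038378) stood at 528 per kb and *vps-41* (chromosome X from 5283831 to 5289724) at 81.6 per kb, a ratio of 6.48. The CORVET subunit gene *vps-8* lay between them at 188 per kb.

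GARP tethers vesicles that return from endosomes to the Golgi, and EARP is the related complex in which VPS-50 takes the place of VPS-54. *vps-51* (chromosome I from 5803956 to 5807291) stood at 544 per kb, *vps-54* (chromosome V from 10566402 to 10576419) at 289 per kb, *vps-53* at 207 per kb and *vps-52* (chromosome X from 7565323 to 7568145) at 108 per kb. *vps-50* (WBGene00008078, chromosome III from 10869193 to 10874813), known in the worm for dense-core vesicle maturation in neurons, had a mean of 41.9 and 12.5 per kb, at percentile 45.8. The level of *vps-54* was 23.1 times that of *vps-50*. The lipid kinase *vps-34* (204 per kb, chromosome I from 6028486 to 6033458), which makes the phosphatidylinositol 3-phosphate of early endosomes, and its partner *vps-15* (234.5 per kb, chromosome II from 11908725 to 11915852) lay within a ratio of 1.15 per kb (1.74 as deposited). *vps-45* (chromosome X from 970583 to 974848), a Sec1/Munc18-family regulator of endosomal SNAREs, stood at 281 per kb.

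The 10 X-linked genes, namely *rab-6.2*, *rab-14*, *rab-37*, *rme-4*, *rme-6*, *snx-1*, *snx-17*, *vps-41*, *vps-45* and *vps-52*, had a median of 177 per kb and a highest level of 281 per kb. The 51 autosomal members had a median of 298 per kb and a highest level of 2265 per kb. The same order held among the other protein-coding genes, with medians of 11.5 per kb for the 2356 X-linked and 18.9 per kb for the 15284 autosomal ones. Of the X-linked members 5 of 10 lay above the third quartile of all protein-coding genes, against 30 of the 51 autosomal members (58.8%). Among the other protein-coding genes the shares were 9.51% and 27.2%. The X chromosome is known to be largely silenced in the worm germ line until late oogenesis. Whether this bears on the levels given here was not tested. Chromosomes I, II and III carried 14, 13 and 11 of the members, and chromosomes IV and V carried 5 and 8.

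**Figure D3:**
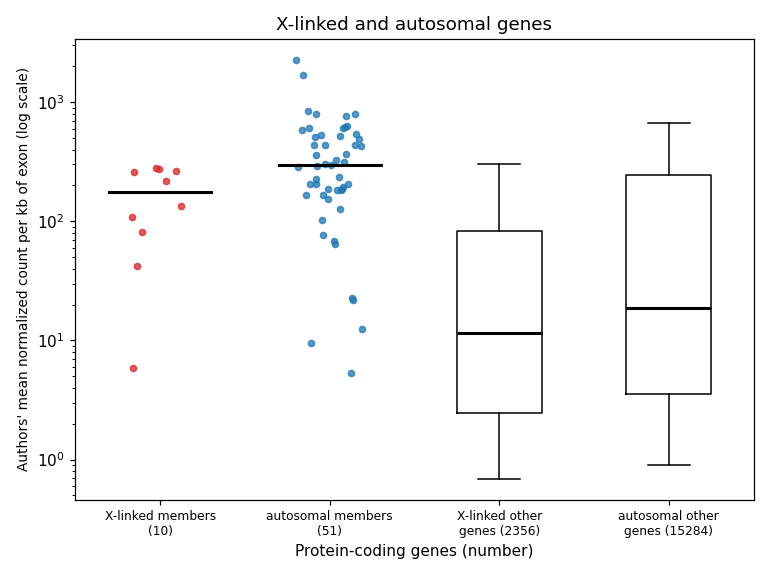
Authors' mean normalized count per kb of exon (y axis, log scale) for X-linked and autosomal members (points, with the median as a bar) and for the other X-linked and autosomal protein-coding genes (boxes from the first to the third quartile with the median, whiskers from the 5th to the 95th percentile). No X-linked member lies above 281 per kb, while autosomal members reach 2265 per kb.

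The members were also described by length and by their neighbours. Their median exon length was 1634 bases, against 1247 bases for the other protein-coding genes. The shares with close neighbours or overlaps given below were not tested. Across the 61 genes, Spearman's rho between exon length and the mean as deposited was 0.30, and between exon length and the level per kb it was -0.35. Over the 17652 other protein-coding genes the values were 0.40 and 0.14. These are descriptions across genes, which share libraries and are not independent. For 15 of 61 members (24.6%) the nearest protein-coding gene upstream on the same strand ended within 500 bases, as is common in worm operons, against 18.5% of all protein-coding genes. Such neighbours included *mics-1*, 90 bases upstream of *vps-54*, *pigc-1*, 173 bases upstream of *vps-26*, and *cyn-11*, 117 bases upstream of *rab-21*. Of the members, 30 (49.2%) overlap another annotated gene on either strand, against 40.3% of all protein-coding genes, and 5 share at least 20% of their exon bases with one. Those 5 are *rab-19*, *vps-22*, *vps-24*, *vps-29* and *vps-60*. Whether the authors' counting used strand is not given in the sources used here.

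Other genes of the same pathways, taken from lists of clathrin adaptors, Rab regulators, coats, tethers and SNAREs, were ranked in the same way. All 19 genes for clathrin and its adaptors lay above the median of protein-coding genes and 12 above the third quartile, with a median of 306 per kb. The clathrin heavy chain gene *chc-1* stood at 494 per kb, the light chain gene *clic-1* at 754 per kb and *dab-1*, an adaptor for lipoprotein receptors, at 581 per kb, while *apm-1* was lowest at 35.03 per kb. Of 16 Rab regulators, 8 lay above the third quartile. *gdi-1*, which extracts Rabs from membranes, was highest at 889 per kb. *tbc-2*, a RAB-5 GTPase-activating protein, stood at 478 per kb, *rei-1*, an exchange factor for RAB-11.1, at 436 per kb and *rabx-5*, an exchange factor for RAB-5, at 28.7 per kb. *aex-3* was lowest at 5.25 per kb and was the only 1 of the 16 at or below the median of protein-coding genes. Of the 16 Arf and coat genes found by name among 19 listed, 15 lay above the third quartile, with a median of 417 per kb. The exocyst genes, 6 of 8 above the third quartile, ranged from 140 per kb (*sec-15*) to 527 per kb (*exoc-7*). Of 18 SNARE and fusion genes 12 lay above the third quartile, with *snb-1* at 726 per kb and *syx-16* at 588 per kb, while *snb-2* at 6.59 per kb and *vamp-8* at 6.57 per kb were lowest.

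**Figure D4:**
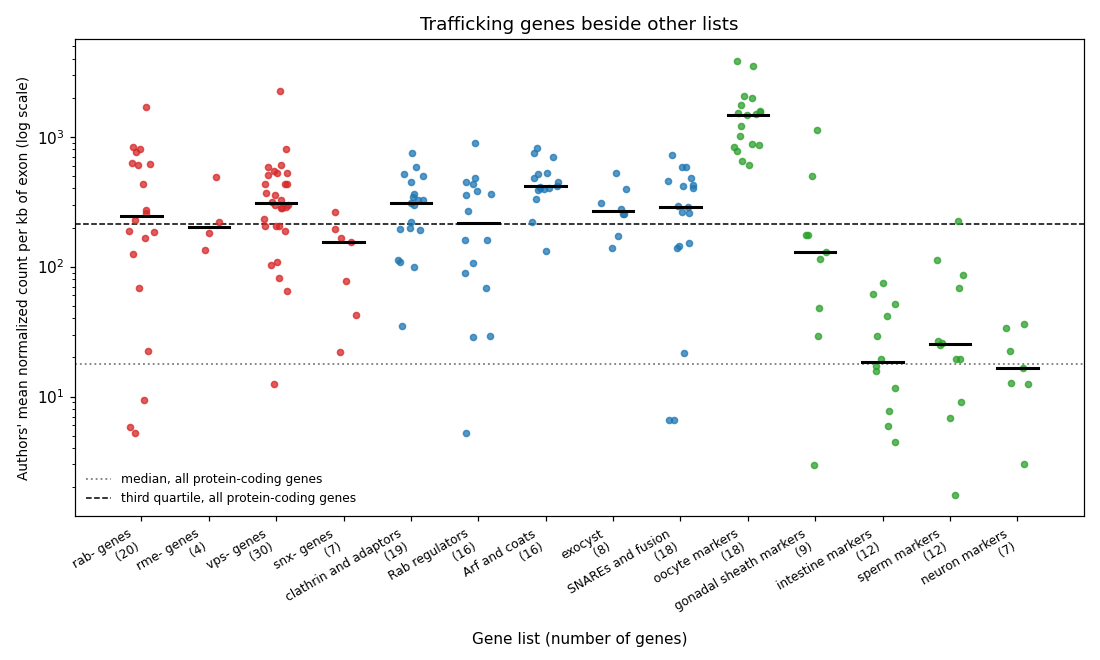
Each point is 1 gene, by list (x axis, number of genes in brackets) and authors' mean normalized count per kb of exon (y axis, log scale), with the list median as a bar. The 4 trafficking families are red, other trafficking lists blue and cell type markers green; oocyte markers sit between 608 and 3856 per kb, while intestine markers stay at or below 74.4 per kb.

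Marker genes of the labelled cell type and of other cell types were ranked in the same way. These lists were chosen with earlier results of these data known, so their levels are not an independent check of cell type. All 18 oocyte markers lay above the third quartile, from 608 per kb (*mei-1*) to 3856 per kb (*perm-2*). Of the trafficking members, *vps-25*, *rab-10*, *rab-1*, *rab-8*, *vps-20*, *rab-5*, *rab-11.1* and *rab-7* reached that range and the others lay below it. The 9 gonadal sheath markers ranged from 2.996 to 1117 per kb. *inx-8* and *inx-9*, the innexins of the sheath side of sheath-oocyte junctions, were highest at 1117 and 497 per kb. Of the 9, only these 2 lay above the third quartile. *unc-27* and *tni-1* stood at 176 and 175 per kb, *lim-7* at 129 per kb and *unc-54* at 114 per kb. The lowest were *myo-3* (48.4 per kb), *ceh-18* (29.1 per kb) and *tnt-2* (2.996 per kb). The 12 intestine markers ranged from 4.48 to 74.4 per kb and the 12 sperm markers from 1.75 to 224 per kb. All members except *vps-25* and *rab-10* lay within the range of the gonadal sheath markers. Every member from *rab-11.2* at 5.28 per kb up to *rme-4* at 219 per kb lay within the range of the sperm markers. Those up to *rab-18* at 68.1 per kb also lay within the range of the intestine markers. The part of sheath or other cells in the level of any member was not tested.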

How the data were processed

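Oocyte RNA of 17 libraries (8 at 300 mM NaCl, 9 control) was prepared with a stranded total RNA kit. The authors aligned reads to WBcel235, quantified them with STARsolo and compared groups with DESeq2. Their deposited level is a signal, the read count divided by a size factor per library and averaged over the libraries of that comparison. Depth per library is unknown. The deposited log2 fold changes, standard errors, Wald scores, p-values and adjusted p are the authors' own comparison and were not used, so no test across libraries was run.

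Exon lengths and positions came from Ensembl release 115 of WBcel235, which held 21399 of 21459 identifiers. Levels per kb use the union of exons, with no pseudocount and no further filter. The authors report that they dropped genes with fewer than 10 reads over all samples. For 463 genes of the table the mean multiplied by the 17 libraries is under 10. How that filter shaped the ranked genes is thus not known here. Members were taken by name alone, but the name rule and the lists were set with earlier results of these data known. Genes were named by role group: all members of groups under 4 and the 2 highest and 2 lowest of larger ones, X-linked members, members with a mean under 10 and numbered paralogs. Most other members are named too, for completeness. Tables were made with pandas 2.3.3 and numpy 2.4.6 in Python 3.11.15, rank correlations with scipy 1.17.1, and figures with matplotlib 3.10.9.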

Additional observations from a re-analysis of the deposited data

How the results depend on the processing

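No paired analysis was possible because the level used is one pooled mean per gene and no test was made. Alternatives that need counts per library (another test or normalization, leaving out replicates, a block) were not run for the same reason. The 35 members above the third quartile became 20 of 59, the 4 at or below the median 13 of 59, the X-linked ones below it 5 in place of 1, and the share above it 77.97% in place of 93.4%, when only genes with a mean of at least 10 were ranked. That setting removes low genes from the ranking. With genes that overlap no other gene, 18 of 31 lay above the third quartile and 2 at or below the median; fewer genes entered. Without length correction 42 lay above the third quartile, with coding length 36, and among all annotated genes 45. Without length correction 13 members crossed the third quartile and 2 the median. Without library values, depth and variation between animals cannot be told apart.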
